A study of Mus musculus with 21 samples.

Results

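The genes described here encode the beta and alpha2delta subunits of voltage-gated calcium channels. They were chosen by symbol, as every *Cacnb* and *Cacna2d* gene in the table, which gave 4 beta genes and 4 alpha2delta genes, 8 of 52550 genes in all. Their transcripts were followed in spiral ganglion neurons (SGNs), the primary auditory neurons of the cochlea, at 5 ages (embryonic day E15.5 and postnatal days P1, P8, P14 and P30), in hair cells (HCs) at P12 and in cochlear glial cells at P8. Each of the 7 groups had 3 replicate libraries from C57BL/6 mice. In every group tdTomato was expressed from the *Rosa26-CAG-loxp-stop-loxp-tdTomato* allele, carried as 1 copy and switched on by a recombinase. SGNs carried *ShhCre/+*, HCs carried *Atoh1-CreER+* with tamoxifen at P0 and P1, and glial cells carried *vGlut3-iCreER/+* with tamoxifen at P2 and P3. The glial line also marks inner hair cells, so only the SGN region had been dissected from it, and the HC sample mixed cochlear and vestibular HCs. SGNs and glial cells were picked by hand. An SGN library held between 69 and 195 cells and a glial library between 86 and 125. An HC library held about 1200 cells, which the methods describe as sorted by FACS and the labels as sorted manually. The labels do not say which animals went into which library, so p-values measure only the spread between these libraries.

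A high-voltage-activated calcium channel is built around a pore-forming alpha1 subunit. A beta subunit binds the channel inside the cell, helps it reach the membrane and shapes its gating, and an alpha2delta subunit lies on the outer face, raises the number of channels at the surface and takes part in synapse formation. Gabapentin and pregabalin bind the products of *Cacna2d1* and *Cacna2d2*. In the inner ear, the Cav1.3 channel encoded by *Cacna1d* carries the calcium current that drives transmitter release from HCs, and *Cacnb2* encodes the beta subunit best known as its partner there.

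All 8 genes are protein coding. On GRCm38, *Cacnb1* lies at chr11:98001508-98023034 on the minus strand, *Cacnb2* at chr2:14603088-14987908 on the plus strand, *Cacnb3* at chr15:98630840-98644529 on the plus strand and *Cacnb4* at chr2:52428320-52676831 on the minus strand. *Cacna2d1* lies at chr5:15934691-16374511 on the plus strand, *Cacna2d2* at chr9:107399612-107529343 on the plus strand, *Cacna2d3* at chr14:28904943-29721864 on the minus strand and *Cacna2d4* at chr6:119236526-119352407 on the plus strand. *Cacnb1*, *Cacnb2*, *Cacnb4* and *Cacna2d2* share exon bases with genes on the opposite strand. Whether reads were counted by strand is not stated, so their counts are uncertain to that extent. *Cacnb3*, *Cacna2d1*, *Cacna2d3* and *Cacna2d4* share none.

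RefSeq (GRCm38.p6) gave the 250 bases before 12 start sites of 7 of the 8 genes, with *Cacna2d4* unmatched. Windows without an exon base in GENCODE M21 could be shown for 5 genes. Of these, *Cacna2d1* and *Cacna2d3* are printed as the alpha2delta genes with the steepest fall and with no called change across SGN ages, and the start site inside *Cacnb4* is printed as a CpG-poor counterpart. Capitals mark GGGCGG, the core of the GC box that Sp1 family proteins bind, or its reverse complement, and overlapping matches run together.

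Cacna2d1, chr5:15934441-15934690, plus strand: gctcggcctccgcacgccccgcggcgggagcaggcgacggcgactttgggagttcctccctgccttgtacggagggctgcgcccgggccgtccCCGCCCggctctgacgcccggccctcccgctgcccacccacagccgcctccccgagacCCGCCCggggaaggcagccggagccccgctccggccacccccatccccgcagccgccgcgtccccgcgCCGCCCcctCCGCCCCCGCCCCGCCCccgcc

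Cacna2d3, chr14:29721865-29722114, minus strand: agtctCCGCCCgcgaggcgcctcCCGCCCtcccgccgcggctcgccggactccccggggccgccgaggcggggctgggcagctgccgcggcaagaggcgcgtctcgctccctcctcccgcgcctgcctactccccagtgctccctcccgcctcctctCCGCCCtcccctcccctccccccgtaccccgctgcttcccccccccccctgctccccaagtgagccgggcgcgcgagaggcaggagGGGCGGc

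Cacnb4, chr2:52558612-52558861, minus strand: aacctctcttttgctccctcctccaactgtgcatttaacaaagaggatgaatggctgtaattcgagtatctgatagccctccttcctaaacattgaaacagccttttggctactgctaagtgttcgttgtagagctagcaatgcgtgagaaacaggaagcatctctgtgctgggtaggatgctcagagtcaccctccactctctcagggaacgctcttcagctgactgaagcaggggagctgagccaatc

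The *Cacna2d1* window held 36 CpGs and 82.4% G or C, with 6 matches, and the *Cacna2d3* window held 30 CpGs and 80.0% G or C, with 4 matches. The internal *Cacnb4* window held 4 CpGs and no match, and 48.8% of its bases were G or C. Over all 32851 windows of the table the median was 6 CpGs and 52.4% G or C, and 32.7% of windows held the motif on either strand. It occurred in 7 of the 12 windows, at 1 or more start sites of each of the 7 genes. *Cacnb1*, *Cacnb2*, *Cacnb3* and *Cacnb4* each had at least 1 CpG-rich and at least 1 CpG-poor window, and counts per gene do not separate their start sites.

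Libraries held between 10368240 and 37287489 counts on genes. The labels were checked against marker genes, as their summed level in TPM (counts divided by gene length and scaled to the same total in each library). The 10 HC markers summed to between 5619 and 6829 TPM in HCs, against between 31.4 and 804 in SGNs and between 91.7 and 413 in glial cells. The 8 glial markers summed to between 7382 and 10017 TPM in glial cells, between 88.3 and 1617 in SGNs and between 142 and 382 in HCs. The 8 SGN markers summed to between 716 and 7778 TPM in SGNs, against at most 299 in HCs and 321 in glial cells. The HC list held *Calb1*, and the authors state that calbindin is found in SGNs as well as HCs. The SGN list held *Gata3*, which they also report in HCs, so these sums are not fully specific. All 10 HC markers were above 0 in each glial library, and all 8 glial markers were above 0 in 14 of the 15 SGN libraries. Within SGNs, glial markers summed to between 912 and 1617 TPM at P8 and to 1162 TPM in P14 replicate 1, and to less than 912 TPM in the others. HC markers were highest in P14 replicate 1. The 5 connective tissue markers summed to 141 and 151 TPM in replicate 1 of P1 and of P8, against at most 32.6 in the other libraries of those ages, and the 5 blood markers to 182 TPM in E15.5 replicate 1.

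Levels of different genes were compared in TPM, and the level of a gene between libraries in CPM after TMM scaling (CPM below). This scaling is meant to correct for differences in the makeup of libraries. By length-scaled level, *Cacnb3* was the most abundant of the 8 genes at every SGN age, with group means between 39.4 and 115 TPM. At E15.5 and P1 it lay above every other member in each library range. From P8 its range overlapped that of *Cacnb4*, which was next with means of 30.3, 36.5 and 25.7 TPM at P8, P14 and P30. *Cacna2d3* was next, with 17.6, 22.3 and 20.3 TPM, and its range overlapped that of *Cacnb4* at all 3 ages. Within each single library of these 3 ages the order was the same, with *Cacnb3* above *Cacnb4* and *Cacnb4* above *Cacna2d3*. *Cacna2d4* was the lowest of the 8 in SGNs, with means between 0.327 and 1.18 TPM.

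The order differed in HCs. *Cacna2d4* led with 61.5 TPM, between 57.9 and 67.5 in the 3 libraries, and its range did not overlap that of any other member. *Cacnb2*, *Cacnb3*, *Cacna2d2* and *Cacna2d1* followed with means of 29.8, 28.4, 26.9 and 24.4 TPM, and neighbours in that order overlapped. *Cacna2d3* (5.12 TPM), *Cacnb1* (2.23 TPM) and *Cacnb4* (1.51 TPM) were lowest. In glial cells *Cacnb3* and *Cacna2d1* had the highest means, 11.6 and 8.22 TPM, and every pair of neighbours in the order overlapped.

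**Figure D1:**
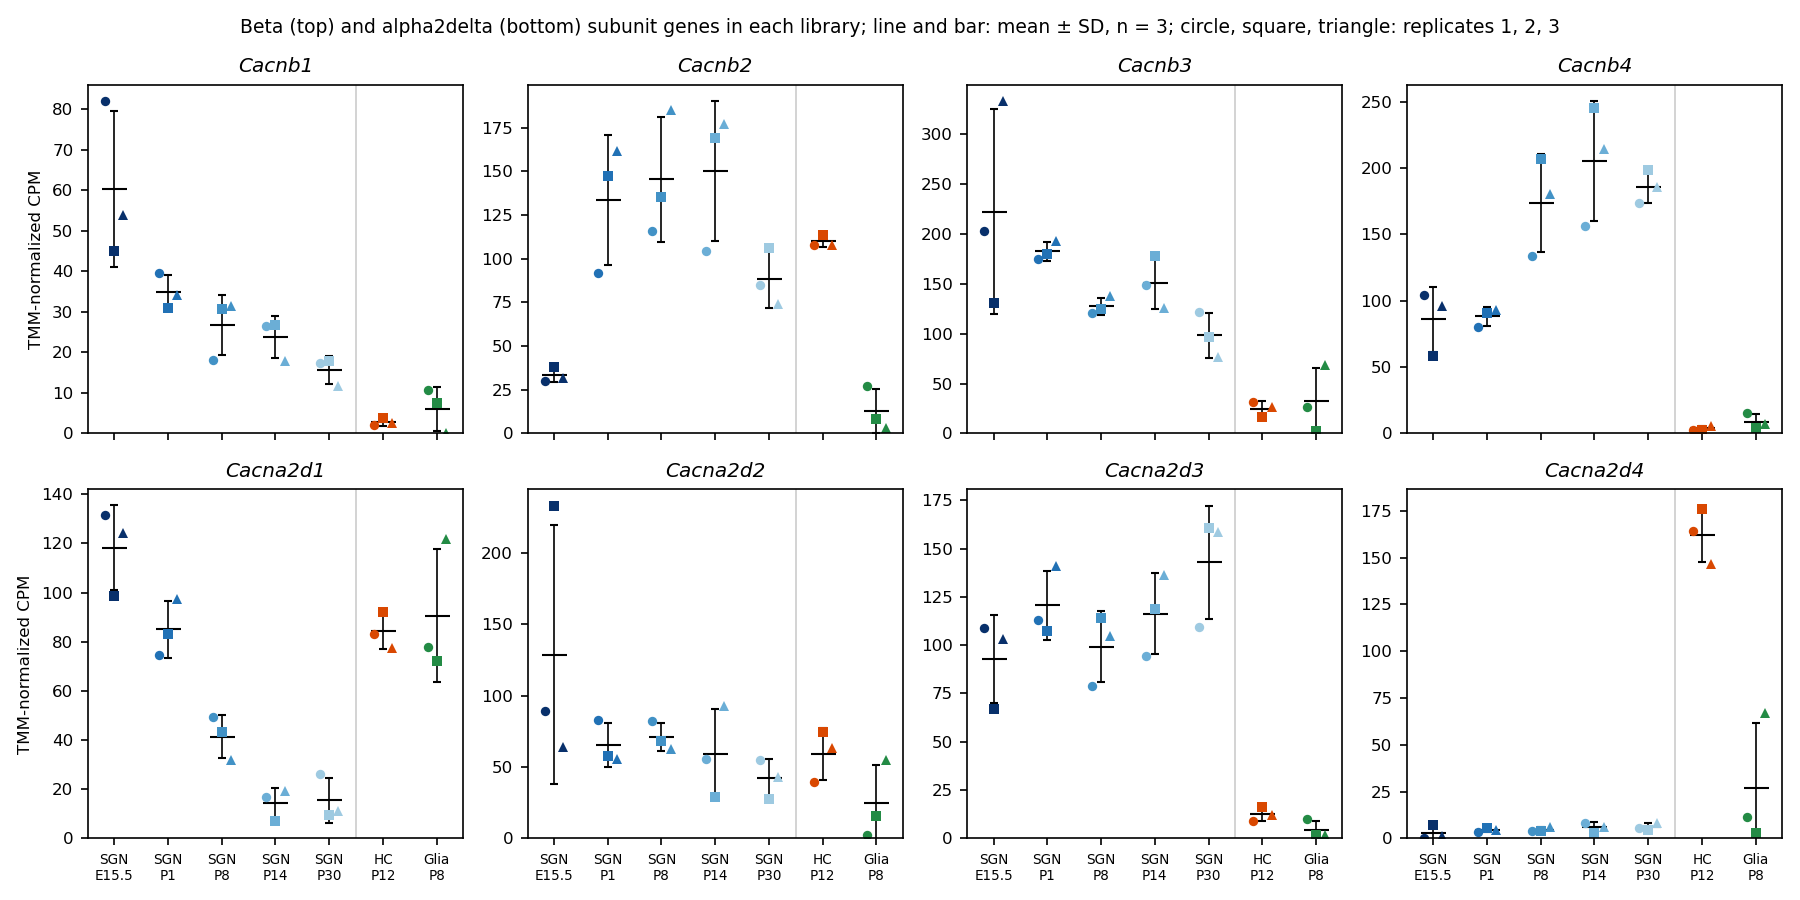
Level of each gene in each library as TMM-normalized CPM on a linear axis from 0, with beta genes in the top row, alpha2delta genes in the bottom row, groups along the horizontal axis, and the mean ± SD of 3 replicates as a line with bars. *Cacna2d1* falls from between 98.6 and 132 CPM at E15.5 to between 9.35 and 26.1 CPM at P30, and *Cacna2d4* lies between 147 and 176 CPM in HCs against at most 8.44 CPM in SGNs.

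In bulk libraries, fewer cells of a type and less RNA per cell cannot be told apart. The levels were also given as shares within each family. Shares do not tell these apart either, since they shift with the cells in a library. Among the beta genes, *Cacnb3* made up between 67.1% and 81.0% of the summed beta TPM in the E15.5 libraries and between 45.9% and 56.8% at P30. *Cacnb4* took between 8.12% and 12% of the beta sum at E15.5 and P1, and between 22.1% and 38.9% in every library from P8 on, so these sets of libraries did not overlap. *Cacnb2* took between 1.83% and 4.70% at E15.5 and between 8.61% and 16.5% in all later SGN libraries. *Cacnb1* fell in share from between 9.05% and 18.6% at E15.5 to between 4.80% and 6.04% at P30. Without division by length, *Cacnb4* had the highest mean share of beta counts from P8 on, with 36.6%, 38.5% and 48.1% at P8, P14 and P30. *Cacnb3* had 27.3%, 28.8% and 25.2% of beta counts and *Cacnb2* had 30.5%, 28.1% and 22.6%. Which beta gene leads from P8 on therefore depends on the length used.

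Among the alpha2delta genes, *Cacna2d3* rose in share from between 16.8% and 39.4% at E15.5 to between 56.6% and 79.8% at P30. *Cacna2d1* went from between 17.4% and 33.3% to between 3.26% and 9.49%. *Cacna2d2* held 64.1% in E15.5 replicate 2, the library with 4774 *Cacna2d2* counts, and between 26.8% and 32.8% in the other 2 libraries of that age. In HCs *Cacna2d4* held between 49.8% and 57.8% of the alpha2delta sum and *Cacnb2* between 42.8% and 57.1% of the beta sum, with *Cacnb3* at between 35.5% and 53.1%. The glial libraries were scattered, with *Cacnb3* at 58.0%, 23.6% and 95.6% of the beta sum in replicates 1, 2 and 3. Shares are given as a description.

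**Figure D2:**
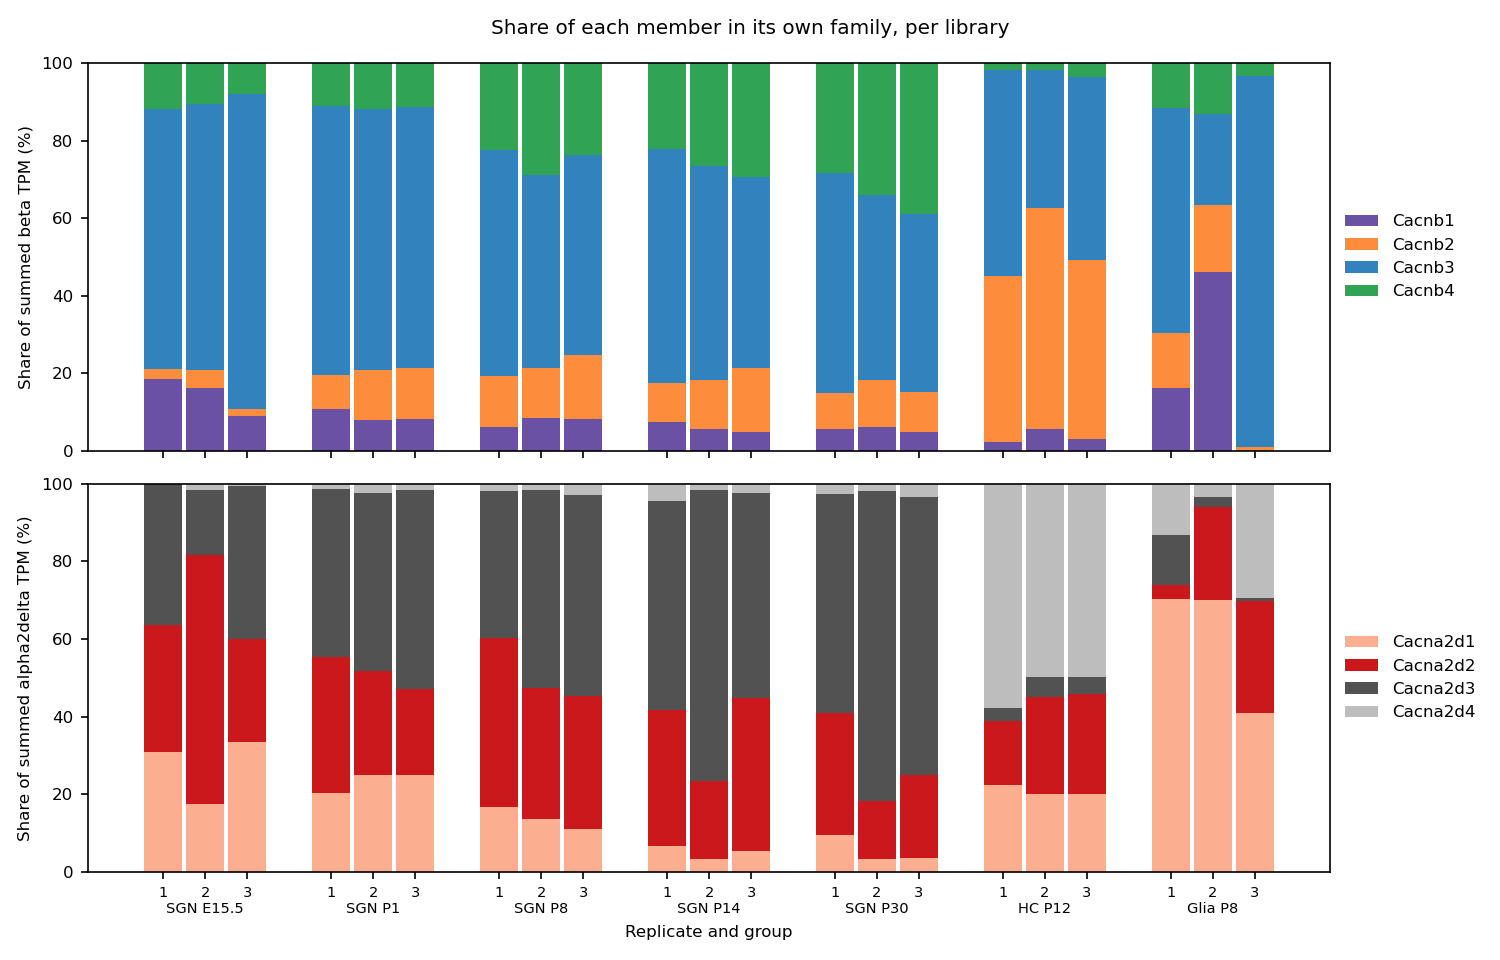
Stacked bars give the percent of the summed beta TPM (top) or summed alpha2delta TPM (bottom) taken by each gene in each of the 21 libraries, numbered by replicate within its group. In SGNs *Cacnb4* reaches at least 22.1% in every library from P8 on, and *Cacna2d1* narrows to at most 9.49% at P30, while *Cacna2d4* is wide in HCs only, apart from 29.5% in glial replicate 3.

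The first question of the time course was which genes changed between neighboring ages. Fits were made with limma-voom on all 15113 genes that passed a low-count filter in SGNs, and all 8 members passed it. A gene was called when its Benjamini-Hochberg adjusted p was under 0.05 and its change was over 2-fold. Between E15.5 and P1, 1 of the 8 members was called, against 8.26% of all genes. Between P1 and P8 it was 1 of 8, against 7.44%. Between P8 and P14 none of the 8 was called, against 0.536%, and between P14 and P30 none, against 0.0596%. For these last 2 transitions 1 and 2 members had an unadjusted p under 0.05. DESeq2 called 1 and 0 members there, and edgeR called none in either.

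The member called between E15.5 and P1 was *Cacnb2*. It stood at 30.1, 38.2 and 32.0 CPM in the E15.5 libraries and at 91.8, 147 and 162 CPM in the P1 libraries. All P1 libraries were above all E15.5 libraries. The log2 change was 1.93 with an SE of 0.33 (limma, adjusted p = 0.00195), or 3.8-fold, and it was called under each of the 8 other processing choices and without any 1 of the 6 libraries. It stayed at between 104 and 185 CPM at P8 and P14, and was at 84.9, 106 and 73.8 CPM at P30. The difference from P14 to P30 was -0.77 on the log2 scale and was not called (limma, adjusted p = 0.503).

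*Cacna2d1* was the member that fell between P1 and P8. Its levels were 74.7, 82.9 and 97.4 CPM at P1 and 49.3, 43.1 and 31.8 CPM at P8, without overlap. The log2 change was -1.02 with an SE of 0.26 (limma, adjusted p = 0.0191), barely past 2-fold. The call was lost with edgeR (adjusted p = 0.135), with DESeq2 (adjusted p = 0.0622), and without P1 replicate 3 (-0.93), P8 replicate 2 (-1.07) or P8 replicate 3 (-0.88). At P14 it was down to 16.7, 7.06 and 19.1 CPM, below every P8 library. That step of -1.65 (SE 0.41) was larger than the one before it but missed the threshold (limma, adjusted p = 0.0743). The step was called with DESeq2 (-1.51, adjusted p = 0.0098) and with sample quality weights (-1.63; limma, adjusted p = 0.0493). On simulated counts for other comparisons DESeq2 called more unchanged genes than limma or edgeR did, and this step was not simulated. *Cacna2d1* is also present in glial cells, at between 72.3 and 122 CPM, and glial markers were higher in SGN libraries at P8 than at P1. The part of other cells in its level was not tested.

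*Cacnb4*, the beta gene mutated in the lethargic mouse, went the other way from P1 to P8. It lay at 80.3, 90.9 and 93.2 CPM at P1 and at 134, 207 and 180 CPM at P8, and the groups did not overlap. Its adjusted p of 0.009 (limma) passed, but the log2 change of 0.96 (SE 0.22) was just under 2-fold, so it was not called. Without P8 replicate 1 the change was 1.13 and was called. At P14 and P30 it was between 156 and 245 CPM.

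**Figure D3:**
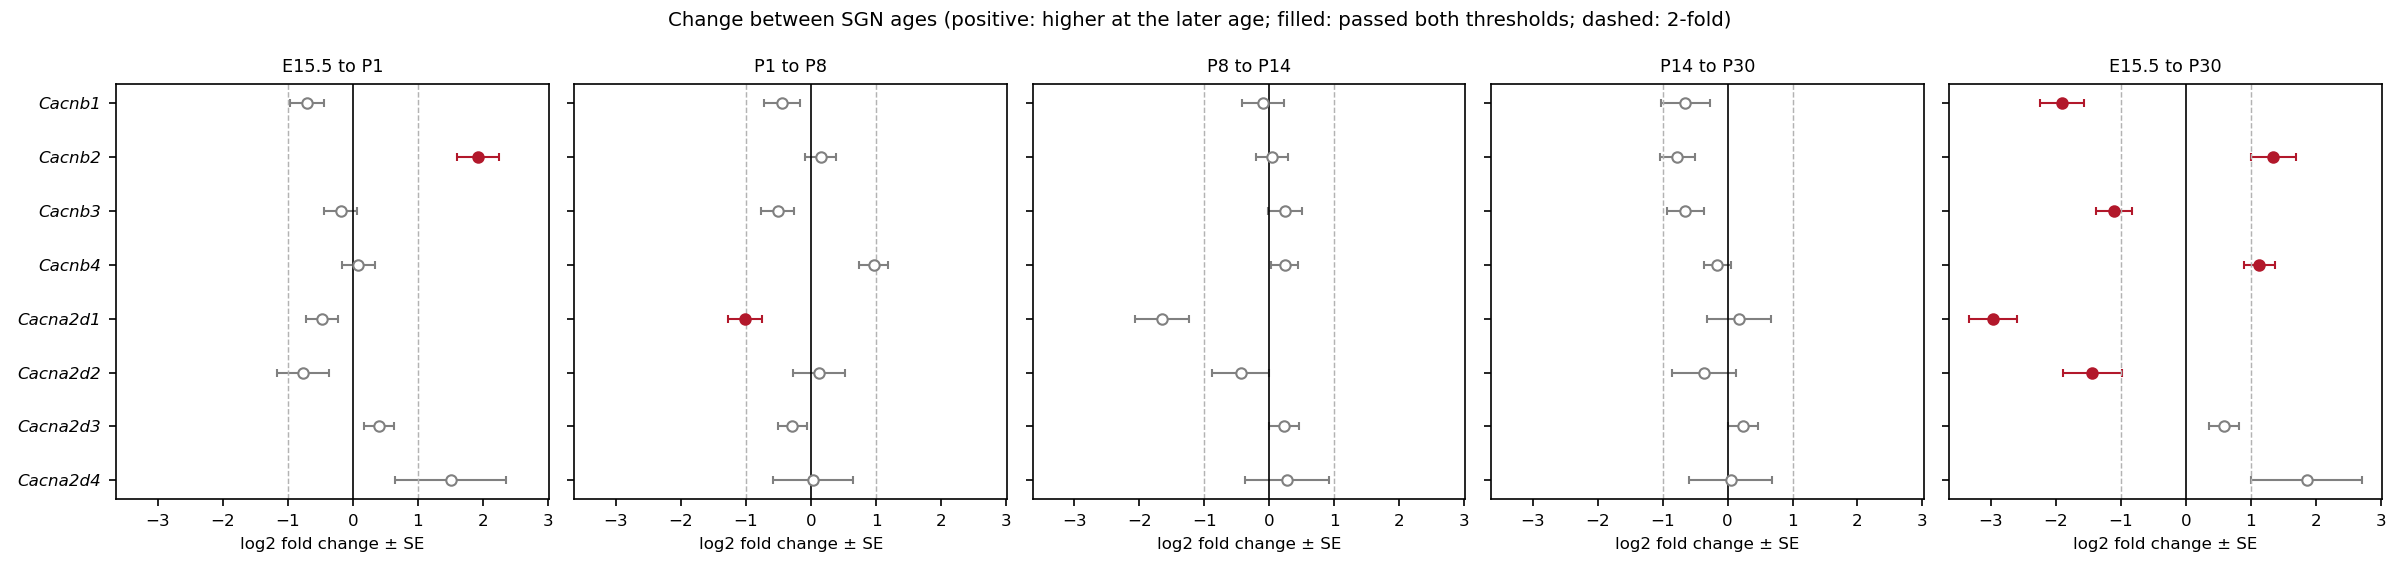
Log2 fold change ± SE of each gene between neighboring SGN ages and from E15.5 to P30 (limma-voom), with filled points for genes past both thresholds and dashed lines at 2-fold. One point is filled in each of the first 2 panels, *Cacnb2* at 1.93 and *Cacna2d1* at -1.02, none from P8 to P30, and 6 from E15.5 to P30.

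Between the youngest and the oldest SGNs, 6 of the 8 members were called, against 34.6% of all genes. The comparison shares its libraries with the transitions above. 2 members rose (18.4% of all genes did) and 4 fell (16.2% of all genes). The median of the absolute log2 change was 1.39 over the 8 members and 1.05 over all genes tested. Scaling by library size alone gave 4 called members and, over all genes, 29.9% rises among the calls in place of 53.2%.

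*Cacnb2* and *Cacnb4* rose. Their log2 changes from E15.5 to P30 were 1.34 (SE 0.34; limma, adjusted p = 0.00542) and 1.13 (SE 0.24; adjusted p = 0.0013). Scaling by library size alone lost both calls, at 0.85 and 0.66, and *Cacnb4* was at 0.84 and not called without E15.5 replicate 2. In CPM, *Cacnb4* lay at 104, 58.3 and 96.0 at E15.5 and at 174, 198 and 186 at P30. Every P30 library was above every E15.5 library for both genes.

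*Cacna2d1* had the largest change of the 8. It lay at 132, 98.6 and 124 CPM at E15.5 and at 26.1, 9.35 and 11.1 CPM at P30, a log2 change of -2.97 with an SE of 0.37 (limma, adjusted p = 1.24e-05), or 7.81-fold. The call held under all 8 other processing choices and without each library in turn. *Cacnb1*, known for its place in the skeletal muscle channel, was at 82.0, 45.1 and 54.0 CPM at E15.5, at between 30.9 and 39.5 CPM at P1 and at 17.4, 17.8 and 11.6 CPM at P30. Its log2 change was -1.91 (SE 0.34; limma, adjusted p = 0.000302), called under every choice, while no single transition passed.

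*Cacnb3* and *Cacna2d2* also fell, with less support. *Cacnb3* was at 203, 131 and 333 CPM at E15.5 and at 122, 97.0 and 76.3 CPM at P30, where all libraries were lower. Its log2 change of -1.11 (SE 0.28; limma, adjusted p = 0.0046) was -0.75 without E15.5 replicate 3 and -0.95 without P30 replicate 3, under 2-fold in each case. *Cacna2d2* was at 89.6, 233 and 64.0 CPM at E15.5 and at 55.1, 27.5 and 43.3 CPM at P30. Its change of -1.44 (SE 0.45; limma, adjusted p = 0.018) became -0.88 without E15.5 replicate 2, the high library, with an adjusted p of 0.0859. It was also not called without P30 replicate 2 (adjusted p = 0.0679) or without the low-count filter (adjusted p = 0.0533).

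*Cacna2d3* and *Cacna2d4* were not called. *Cacna2d3* lay at 109, 66.8 and 103 CPM at E15.5 and at 109, 161 and 159 CPM at P30, with a log2 difference of 0.59 (SE 0.24; limma, adjusted p = 0.0557). Its larger share in the alpha2delta sum at P30 came with lower levels of *Cacna2d1* and *Cacna2d2*. *Cacna2d4* had counts of 4, 150 and 26 in the E15.5 libraries and between 53 and 196 in the P14 and P30 libraries. Its difference of 1.86 (SE 0.85) had an adjusted p of 0.0898 (limma), and was 3.08 and called without E15.5 replicate 2 (adjusted p = 0.0233). In a test for a difference among any of the 5 ages, *Cacnb1*, *Cacnb2*, *Cacnb3*, *Cacnb4* and *Cacna2d1* were called, 5 of 8 against 34.1% of all genes.

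The second question was how SGNs differed from the HCs and the glial cells. Cell types also differed in driver line and tamoxifen, HCs in the way of isolation if the methods rather than the labels hold, and most comparisons in age. These differences cannot be told apart from cell type here. These fits held all 21 libraries and 17531 genes, and a call needed an adjusted p under 0.01 and a change over 4-fold. Against HCs, the mean of the 5 SGN ages was called for 5 of the 8 members, and 26.8% of all genes were called. 4 members were higher in SGNs (10.5% of all genes) and 1 was lower (16.2%). Scaling by median ratios or by library size left all 5 calls and their directions in place, although the median of all genes moved by -0.22 and -0.55 on the log2 scale.

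*Cacna2d4* was the member lower in SGNs. This gene is known from retinal photoreceptors, where its loss causes a cone dystrophy. It lay at 164, 176 and 147 CPM in HCs, and at no more than 8.44 CPM in any SGN library. The log2 difference was -5.36 (SE 0.37; limma, adjusted p = 9.77e-11), or 41-fold. The SGN library with the highest level, P14 replicate 1, also had the highest sum of HC markers at 804 TPM. P30 replicate 3 had 8.42 CPM of *Cacna2d4* and 112 TPM of HC markers. The part of HC transcripts in these levels was not tested.

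*Cacnb4* and *Cacna2d3* were higher in SGNs. *Cacnb4* was at 2.91, 2.37 and 5.89 CPM in HCs and at no less than 58.3 CPM in any SGN library, a log2 difference of 5.26 (SE 0.59; limma, adjusted p = 1.72e-07). *Cacna2d3*, a gene with a known part in the auditory pathway and in pain, was at 9.02, 16.1 and 12 CPM in HCs and at 66.8 CPM or more in SGNs, a difference of 3.16 (SE 0.40; adjusted p = 8.74e-07). *Cacnb3* was at 31.6, 16.7 and 26.0 CPM in HCs and at 76.3 CPM or more in SGNs. It differed by 2.65 (SE 0.46; limma, adjusted p = 5.74e-05). *Cacnb1* was at 2.02, 3.83 and 2.54 CPM in HCs and differed by 3.37 (SE 0.80; adjusted p = 0.00138), but was not called without HC replicate 3 (adjusted p = 0.0118).

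*Cacnb2* and *Cacna2d2* were not called between SGNs and HCs. *Cacnb2* was at 108, 114 and 108 CPM in HCs, inside the span of the SGN libraries from P1 on and above all E15.5 libraries. This order depended on scaling. Before TMM scaling its mean CPM was 151 in HCs and 125 in SGNs at P14, against 110 and 150 after it. In TPM the means were 29.8 in HCs and 18.4 in SGNs at P14. The log2 difference between the SGN mean and HCs was -0.22 (SE 0.23; limma, adjusted p = 0.435) for *Cacnb2* and 0.14 (SE 0.41; adjusted p = 0.783) for *Cacna2d2*. *Cacna2d1* differed by -1.14 (SE 0.22; adjusted p = 0.000153), past the p threshold and under 4-fold.

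At the closest ages, P14 for SGNs and P12 for HCs, 6 of the 8 members were called, against 23.1% of all genes. To the 5 genes above this added *Cacna2d1*, at 83.2, 92.2 and 77.5 CPM in HCs and at most 19.1 CPM in SGNs at P14. Its log2 difference was -2.68 (SE 0.41; limma, adjusted p = 2.14e-05). *Cacnb1* differed by 3.11 (SE 0.89; adjusted p = 0.00708) and was not called without any 1 of 5 of the 6 libraries, with adjusted p-values up to 0.0316. P14 SGN replicate 3 was the library whose omission kept that call. It was also lost with median-ratio scaling (adjusted p = 0.0104), with scaling by library size alone (adjusted p = 0.0319) and without the low-count filter (adjusted p = 0.0131). With scaling by library size alone, *Cacnb3* also missed 4-fold, at 1.96.

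Against glial cells, the mean of the SGN ages was higher for 6 of the 8 members, all 4 beta genes and *Cacna2d2* and *Cacna2d3*, and none was lower past the threshold. Of all genes, 24.7% were called, 14.3% higher and 10.4% lower in SGNs. *Cacna2d3* lay at 9.91, 1.93 and 1.55 CPM in glial cells and differed by 4.97 on the log2 scale (SE 0.67; limma, adjusted p = 3.6e-06). *Cacnb4* lay at 15, 4.20 and 6.99 CPM and differed by 4.03 (SE 0.53; adjusted p = 3.08e-06). Both calls held under every choice of processing and without each library.

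The other calls against glial cells were less firm. *Cacnb2* was at 27.3, 8.14 and 3.11 CPM in glial replicates 1, 2 and 3. It differed by 3.19 (SE 0.60; limma, adjusted p = 0.000163) and was lost only with sample quality weights (adjusted p = 0.0163). The 8 SGN markers summed to 321, 55.1 and 34.6 TPM in glial replicates 1, 2 and 3, so replicate 1, where *Cacnb2*, *Cacnb4* and *Cacna2d3* were highest among glial cells, also held the most SGN marker transcripts. All 3 genes were called without that replicate. *Cacnb3*, at 26.3, 2.63 and 68.2 CPM, differed by 3.09 and by 1.98, under 4-fold, without glial replicate 2. *Cacnb1* had 206, 85 and 0 counts in the glial libraries and differed by 3.96 (SE 0.99; adjusted p = 0.0023), with the size set by the library at 0. Without glial replicate 3 it differed by 1.65, under 4-fold, and edgeR gave 2.26 (adjusted p = 0.0114).

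*Cacna2d2* was at 2.65, 15.9 and 54.9 CPM in glial cells, and the highest value lay within the SGN span. It differed by 2.63 (SE 0.76; limma, adjusted p = 0.0069). Without glial replicate 1 the difference was 1.18 (adjusted p = 0.16), without glial replicate 2 it was 2.92 (adjusted p = 0.0161), and 5 of the 8 other choices did not call it. *Cacna2d1* was higher in glial cells by 1.18 on the log2 scale, written as -1.18 for SGNs (SE 0.24; limma, adjusted p = 0.000399), which is under 4-fold. *Cacna2d4* had 216, 30 and 690 counts in glial cells, with a difference of -1.61 (SE 0.64; adjusted p = 0.0416). It was called with edgeR (-2.52), with DESeq2 (-2.66) and without glial replicate 2 (-2.47). HC markers summed to 413, 91.7 and 124 TPM in the 3 glial libraries. The part of HC transcripts in the glial *Cacna2d4* level was not tested.

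At P8 in both cell types, the same 6 members were called higher in SGNs. Of all 17531 genes tested, 2342 were called higher in SGNs, and 20.9% were called in either direction. The count of members was 3 with edgeR, with sample quality weights or with only the P8 libraries in the fit. For all ages it was also 3 with sample quality weights. *Cacnb2* (3.76), *Cacnb4* (4.36) and *Cacna2d3* (4.79) were called under every choice and without any 1 of the 6 libraries. *Cacna2d2* (2.76; limma, adjusted p = 0.00884) was lost under 7 of 8 choices and without 5 of the 6 libraries. *Cacnb1* was lost without P8 SGN replicate 2 (adjusted p = 0.0118), without P8 SGN replicate 3 (adjusted p = 0.0111) and without glial replicate 3 (1.49), and *Cacnb3* without glial replicate 2 (1.76). Glial markers reached up to 1617 TPM in the P8 SGN libraries, and their part in these differences was not tested.

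HCs and glial cells differed in 2 members, against 24.4% of all genes. *Cacnb2* was higher in HCs by 3.41 (SE 0.62; limma, adjusted p = 0.000174) and *Cacna2d4* by 3.75 (SE 0.59; adjusted p = 3.77e-05). edgeR did not call *Cacna2d4* (2.59, adjusted p = 0.0284) and sample quality weights did not call *Cacnb2* (adjusted p = 0.0113). With scaling by library size alone *Cacna2d2* was also called (2.98 against 2.48). *Cacna2d1* differed by -0.04 with an SE of 0.28 on the log2 scale and was not called.

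**Figure D4:**
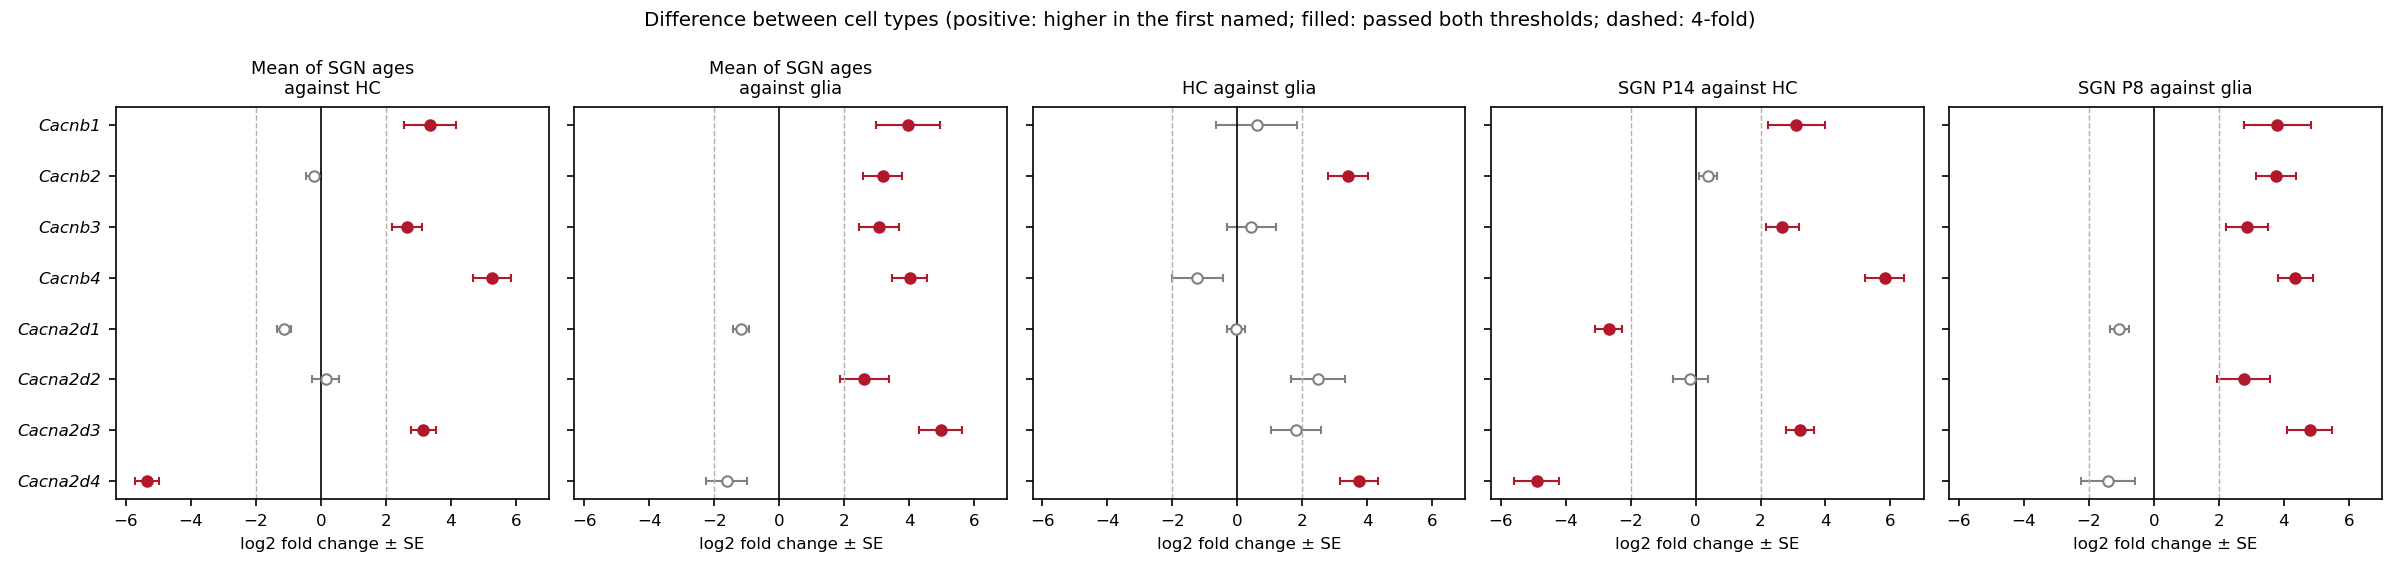
Log2 fold change ± SE of each gene between cell types (limma-voom), positive where the first named is higher, with filled points past both thresholds and dashed lines at 4-fold. *Cacna2d4* lies at -5.36 and *Cacnb4* at 5.26 in the panel of SGNs against HCs, and all beta genes lie to the right in the panels of SGNs against glial cells.

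A list of 42 genes in 5 groups held other channel subunit genes, taken by name, and genes linked to these subunits or channels. Of the list, 32 genes passed the filter in SGNs and 34 in the fit of all libraries. From E15.5 to P30, 6 of the 32 rose, against 18.4% of all genes, and 10 fell, against 16.2%. Of the 7 alpha1 genes tested, 3 fell and none rose. These were *Cacna1e*, the R-type pore (log2 change of -7.93; limma, adjusted p = 6e-07), *Cacna1h*, a T-type pore (-3.97), which needs neither beta nor alpha2delta subunits, and *Cacna1b*, the N-type pore (-2.31). *Cacna1e* averaged 97.2 TPM at E15.5 and 0.395 TPM at P30. From P1 to P8, where *Cacna2d1* fell, 4 of the 7 alpha1 genes fell, *Cacna1b*, *Cacna1d*, *Cacna1e* and *Cacna1h*. Of all 15113 genes tested, 476 were called lower, and 7.44% were called in either direction. From P8 to P14 the 1 list gene called was *Cacna1e* (-2.02; limma, adjusted p = 0.0465), and from P14 to P30 none of the 32 was called. From E15.5 to P1, where *Cacnb2* rose, *Cacna1d* rose by 1.45 and *Cacna1e* fell by 1.41 on the log2 scale. *Cacna1a*, the P/Q-type pore, was called in none of the age comparisons and averaged between 15.6 and 31 TPM at the 5 ages.

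Among the 5 gamma genes tested, *Cacng7* rose (1.45) and *Cacng4* (-7.10), *Cacng5* (-1.45) and *Cacng8* (-3.45) fell from E15.5 to P30. The fall of *Cacng8* had an SE of 1.27, and the gene was not called in the test over all 5 ages (limma, adjusted p = 0.107). The gamma genes were listed by name, and whether their products work with these channels was not tested. *Rem2*, an RGK protein that binds beta subunits and blocks channels, fell by 3.62 and was the 1 of 8 beta subunit binding genes called. Of the 5 alpha2delta partners, *Cachd1*, an alpha2delta-like protein, rose (1.78), and *Thbs4* (-5.78) and *Lrp1* (-1.82) fell. Among the calcium sensors and adaptors, *Calm2* (1.74), *Calm3* (1.29) and *Cabp1* (2.50) rose and *Stac3* (-5.16) fell. *Stac3* had an SE of 1.47 and was not called in the test over all 5 ages (limma, adjusted p = 0.0509).

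Against HCs, 16 of the 34 list genes tested were higher in SGNs, against 10.5% of all genes, and 6 were lower, against 16.2%. Gamma genes made up 5 of the 16. The alpha1 genes higher in SGNs were *Cacna1a* (4.69), *Cacna1b* (3.69), *Cacna1c* (5.63), *Cacna1e* (4.56) and *Cacna1h* (5.95). *Cacna1d* averaged 119 TPM in HCs. For the mean of the SGN ages it differed by -1.90 (limma, adjusted p = 1.58e-10), which is under 4-fold, and was not called. By the test at the closest ages, it was called lower in SGNs at P14 than in HCs (-2.24; limma, adjusted p = 8.47e-08). The genes lower in SGNs were *Rem1* (-4.74), *Rem2* (-2.41), *Thbs1* (-4.26), *Cabp2* (-6.16), *Cabp4* (-2.14) and *Stac* (-4.34). *Cabp4* and *Stac* did not pass the filter in SGNs and entered this fit only through HCs or glial cells. A lower level in SGNs was therefore favored in advance for them by the filter. *Cabp2*, a calcium sensor of HC channels, and *Cacna2d4* had differences of the same sign. Against glial cells, 17 of the 34 were higher in SGNs, against 14.3% of all genes, *Rims1* (5.51), *Rims2* (3.38) and *Rimbp2* (4.46) of the presynaptic active zone among them. Gamma genes made up 4 of the 17. Of the 34 list genes, 4 were lower, against 10.4% of all genes, namely *Gem* (-3.50), *Ahnak* (-4.88), *Thbs2* (-4.84) and *Cabp4* (-3.62). The limit set by the filter holds for *Cabp4* here too.

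The members differed in how they varied with each other. Over the 15 SGN libraries, Pearson's r of log2 CPM was 0.78 for *Cacnb1* with *Cacnb3* and 0.76 for *Cacnb1* with *Cacna2d1*, while *Cacnb4* with *Cacna2d1* had -0.84. Over all 21 libraries *Cacnb4* with *Cacna2d3* had 0.89 and *Cacnb1* with *Cacna2d4* had -0.76. Over the 15 SGN libraries the same pairs had 0.51 and -0.70. The value of a pair could change sign with the libraries used, as for *Cacnb1* with *Cacna2d3*, at 0.80 over 21 and -0.40 over 15. The points share libraries and age or cell type groups, so these are descriptions.

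The genes most like each member were sought among 11293 genes over CPM 10 in all replicates of some group, by Pearson's r over the 21 libraries. *Cacnb4* was most like *Rims4* (0.98) and *Ubfd1* (0.98), and *Cacna2d3* most like *Susd4* (0.98) and *Hecw1* (0.98). *Cacnb1* was closest to *Dclk2* (0.96) and *Ppfia2* (0.96), and *Cacnb2* to *Prox1* (0.96) and *Tspyl5* (0.95). *Cacnb3* was closest to *Adcy5* (0.95) and *Efnb2* (0.94). Among the genes near *Cacna2d1* was *Nol4l* (0.95), and those nearest to *Cacna2d4* were *Ttll3* (0.95) and *Gm27227* (0.94). *Cacna2d2* had no neighbour above 0.82, the value for *Robo1* and *Gtf2ird2*.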

How the data were processed

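RNA was sequenced from 21 libraries in 7 groups of 3. The authors mapped reads to mm10 with STAR, version 2.4.0i in the submitters' processing notes, counted them per gene of GENCODE vM15 with featureCounts, and deposited raw counts for 52550 genes. Strand, multimapping and pair settings are not given in the sources used here. RNA was amplified with oligo-dT and random primers. Symbols came from GENCODE M21 and matched 52403 genes.

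Counts were scaled by TMM (edgeR 4.0.16) and fitted with voom in limma 3.58.1 under R 4.3.3, with group means only and two-sided tests. Genes needed CPM over 1 in all replicates of 1 group. TPM used the deposited gene lengths. The fits were tested on simulated data for E15.5 to P1 and for SGNs against HCs only. There DESeq2, used only as an alternative, called more unchanged genes than limma or edgeR did. Members, lists and thresholds were chosen with earlier results of these data known. The genes named are the 8 members, the list genes that were called, and the 2 nearest genes of each member. Some genes that this rule picks are not reported here.

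Libraries of the same replicate number were compared by the correlation of their deviations from the group means. It was over 0.1 for all 3 numbers at P14 and P30 (0.40, 0.30 and 0.14), at P8 and P30 (0.41, 0.23 and 0.18) and at P1 and P14 (0.27, 0.11 and 0.14), and for no other pair of groups.

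A count of 3, the limit that a count of 0 allows, equals between 0.0805 and 0.289 CPM, covering counting error only. Of counts from 1 to 20, between 64.3% and 75.0% were even in each library. If both reads of a pair were counted, the limit is higher, at 6 counts. Alternatives were DESeq2 1.42.0, edgeR's quasi-likelihood test, 2 other scalings, no low-count filter, sample quality weights, a replicate block, only the groups compared, and each library left out.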

Additional observations from a re-analysis of the deposited data

How the results depend on the processing

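No member result that was called changed direction under any alternative or without any library. Of 33 called results of single members, 16 kept their call under all of them. From P1 to P8, edgeR and DESeq2 each called 0 members in place of 1. From P8 to P14, DESeq2 and sample quality weights each called 1 in place of 0. Sample quality weights left 3 of 6 calls for SGNs against glial cells and 1 of 2 for HCs against glial cells, where edgeR also left 1. At P8, edgeR, sample quality weights and only the groups compared each left 3 of 6. The cause was not tested.

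With 1 library left out, the count of called members was 1 to 1 from E15.5 to P1, 0 to 2 from P1 to P8, 0 to 0 from P8 to P14 and from P14 to P30, 5 to 6 from E15.5 to P30 and 4 to 5 for any age. It was 4 to 5 for SGNs against HCs, 5 to 6 against glial cells, 2 to 2 for HCs against glial cells, 4 to 5 at P8 and 5 to 6 for P14 SGNs against P12 HCs. 

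The replicate block gave 1, 1, 0 and 0 called members in the 4 transitions and 6 from E15.5 to P30, as without it. It gave 5 for SGNs against glial cells and 4 at P8, where numbers did not pair the libraries, and changed no other count of called members.

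Scaling by library size alone moved the median of all genes by up to -0.71 on the log2 scale, for P14 SGNs against P12 HCs, where 4 members were called. Shares by counts without length moved by more than 1 SD for 27 of 56 values. With 3 libraries in a group, the absence of a call does not show equal levels.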
